A study of Bos taurus with 10 samples.

Results

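KRT8, KRT18, TFAP2C and SFN were read on 10 arrays of bovine RNA by 7 probe sets, chosen as all probe sets whose human platform annotation gives 1 of these 4 symbols alone and that had deposited values. They read 4 of the 6732 genes with values, and were 7 of 10186 probe sets once controls were left out. KRT8 and KRT18 had 1 probe set each, TFAP2C had 2 and SFN had 3, and none of the platform's probe sets for these genes was blank. The compared groups were embryos from in vitro fertilization (IVF, in which oocytes and sperm are joined in a dish; 3 arrays, each labelled as a pool of total RNA) and 7 tissues with 1 array each. The tissues were lung, liver, kidney, heart, muscle, spleen and brain. The series title calls the tissues adult, and among the sample labels only that of brain repeats this. The labels give no genotype, breed, sex, treatment, embryo age or number of embryos or animals. All samples were cattle RNA hybridised to probes designed for human genes, so each value also depends on how well the bovine transcript matches the human probes.

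KRT8 and KRT18 are the type II and type I keratins that pair into the intermediate filaments of simple, single-layered epithelia. They belong to the first keratins that a mammalian embryo makes, in the trophectoderm, the blastocyst's outer cell layer, which later forms most of the placenta's fetal part. TFAP2C is an AP-2 transcription factor of the trophectoderm and its placental descendants in the mouse, where it is needed for the placenta to form. SFN (14-3-3 sigma, also called stratifin) is the epithelial member of the 14-3-3 family, small adaptors that bind phosphorylated proteins; in human cells it is induced by p53 and holds back the entry into mitosis. The arrays measured whole embryos of unstated stage, so the cell type that carried a signal was not measured. CDX2 and KRT19, further trophectoderm markers, had no values here. GATA3, a trophectoderm transcription factor, did not pass the test (0.74 ± 0.24 log2, SE; limma adjusted p = 0.0668), so the 4 genes are called here by their own names. GATA2, a related factor, depended on the probe set: its brightest differed by -0.01 (adjusted p = 0.983), while a dimmer one, tested through the embryo arrays alone, rose by 1.64 (adjusted p = 0.00356).

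The data as a whole set limits on each value below. Deposited array medians ran from 123.7 to 221 on the embryo arrays and from 99.2 to 183.3 on the tissue arrays, and the arrays were therefore quantile normalized; intensities below are normalized unless called deposited. Differences are on the scale of log2(intensity + 72.2); on this scale the change of a dim probe set appears smaller than it is. A probe set was tested where 3 or more arrays read it above their own median. Over the 6775 that met this, limma called 601 higher (8.87%) and 218 lower (3.22%) in embryos at a Benjamini-Hochberg adjusted p under 0.05. With the values as deposited it called 776 higher and 151 lower. Nothing in the labels says that the 3 embryo arrays came from separate pools, so their spread may be technical; averaged and counted as 1 sample, they gave 73 higher (1.08%). The tissues' spread is a spread between tissues. With embryo array 1, 2 or 3 left out in turn, and the filter lowered to 2 arrays after seeing the data, 204, 179 and 325 were higher. The third embryo array stood somewhat apart, with Spearman correlations of 0.80 and 0.87 with the other two, which correlated at 0.92 with each other. It was also closer to muscle (0.35, against 0.24 and 0.22 for the first and the second embryo array).

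Each of the 4 genes was read brighter in embryos than in every tissue by at least 1 probe set. Of the 7 member probe sets, 6 had all 3 embryo values above all 7 tissues, where 9.43% of all 10186 probe sets did and 12.5% of the tested ones. The 1 exception was the TFAP2C probe set 205287_s_at, whose value on the third embryo array fell among the tissues. With no filter on dim probe sets, limma called the same 6 of the 7 higher, where 5.46% of all 10186 probe sets were called higher. The filter passed 6 of the 7. KRT18 and the probe sets 205286_at of TFAP2C and 209260_at of SFN passed it through the 3 embryo arrays alone, so each of those had to be higher in embryos to be tested at all. KRT8 and SFN 33323_r_at were above the median in lung as the only tissue, so they too needed embryo arrays to be tested. Only SFN 33322_i_at was above the median on enough tissue arrays (6) to be tested without the embryos.

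**Figure D1:**
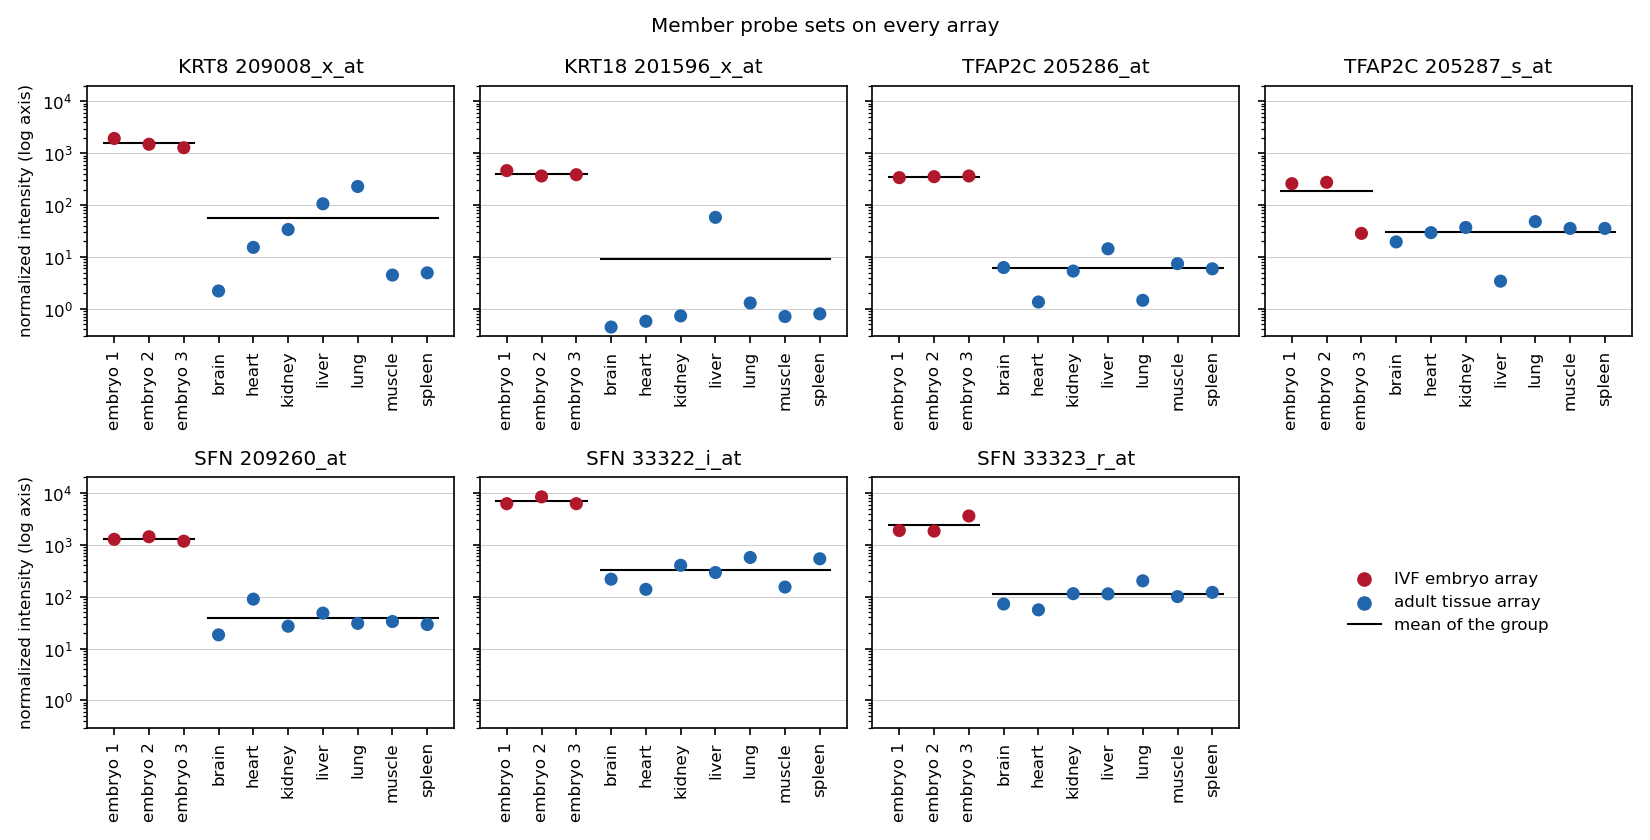
Normalized intensity (log axis) of the 7 member probe sets on the 3 IVF embryo arrays (red, left) and the 7 tissue arrays (blue); each point is 1 array and the black lines are group means. In 6 panels every embryo point lies above every tissue point, and for TFAP2C 205287_s_at the third embryo array reads 28.5, between liver at 3.42 and lung at 48.1.

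KRT8 (209008_x_at) read 1927, 1491 and 1278 on the 3 embryo arrays, against a lowest value of 2.21 in brain, a median of 15.3 in heart and a highest value of 228.5 in lung. The groups did not overlap, and the dimmest embryo array exceeded lung 5.59-fold. In embryos it averaged 1565 ± 331 (SD, n = 3) and in tissues 56.5 ± 84.2 (SD, n = 7), so that embryos minus tissues came to 3.85 ± 0.41 log2 (SE; limma adjusted p = 9.9e-05). Among the tested probe sets its rank by size was 3, and 19 with no offset. The averaged embryo arrays gave an adjusted p of 0.0389 with limma, the nearest to the threshold of the 6 tested. Among all probe sets of an array, KRT8 lay at percentiles 98.9 to 99.6 in embryos, 71.2 in lung and 36.5 in liver.

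The tissues differed among themselves for KRT8. Lung (228.5) was followed by liver (106.0), kidney (33.8), heart (15.3), spleen (4.94), muscle (4.48) and brain (2.21). Lung exceeded liver by 0.75 and liver exceeded kidney by 0.75 on the log2 scale, both more than the SD of 0.29 between the embryo arrays. The later steps, from kidney down to brain, were each smaller than that SD, so their order is not resolved with 1 array per tissue. The SD of the embryo arrays does not measure how arrays of a tissue vary, so the larger steps were not tested either.

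KRT18 (201596_x_at), the type I partner of KRT8, read 462.8, 365.0 and 386.1 in embryos, against 0.45 in brain, a tissue median of 0.73 in kidney and 58.1 in liver. Liver stood alone: lung, the next tissue, read 1.30, and the other 6 tissues lay between 0.45 and 1.30. These 6 readings are at the bottom of the array, below the 2nd percentile in lung (1.75) and in heart (0.88), so no order can be read among them. KRT18 averaged 405 ± 51.5 (SD, n = 3) on embryo arrays and 8.95 ± 21.7 (SD, n = 7) on tissue arrays, so that embryos minus tissues came to 2.58 ± 0.27 log2 (SE; limma adjusted p = 8.3e-05, and 0.0048 with averaged embryo arrays). The dimmest embryo array exceeded liver 6.28-fold, and 9.51-fold with values as deposited. Liver lay at percentile 20.5 of its array, and the files give no detection call.

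The partner keratins did not share their brightest tissue, since KRT8 was brightest in lung and KRT18 in liver. In lung KRT8 was read well above its own level in the other tissues, while KRT18 was read at 1.30. Across all 10 arrays their log2 values had a Pearson correlation of 0.95 and a Spearman correlation of 0.92, values that the shared embryo arrays carry. Over the 7 tissues alone these were 0.40 and 0.79. Bovine KRT18 and KRT8 are immediate neighbours among the protein-coding genes of the RefSeq annotation (assembly ARS-UCD2.0). On the KRT18 side the next gene is EIF4B, a translation initiation factor. It had 1 probe set that rose in embryos (1.11, limma adjusted p = 0.0337) and 1 that did not pass (-0.29, adjusted p = 0.495). On the KRT8 side KRT78 and KRT79 had no values, and KRT4 read 129 ± 8.14 (SD, n = 3) on embryo arrays and 147 ± 52.7 (SD, n = 7) on tissue arrays and was not tested.

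A further probe set, 222060_at, is annotated to KRT8P12, a human pseudogene copy of KRT8, and is not counted among the 7. Its tissue values followed those of KRT8 (Pearson 0.97 and Spearman 0.96 over the 7 tissues, log2 values), with lung brightest, then liver and kidney. Its embryo values did not exceed lung. It read 295.8, 265.4 and 175.5 in embryos, against 0.91 in brain, a tissue median of 7.83 in spleen and 400.0 in lung. Embryos exceeded tissues by 1.47 ± 0.53 log2 (SE; limma adjusted p = 0.0935). Which bovine transcript this probe set read was not tested, and the same holds for the KRT8 and KRT18 probe sets, whose suffix (_x_at) marks probes that may also match other transcripts.

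**Figure D2:**
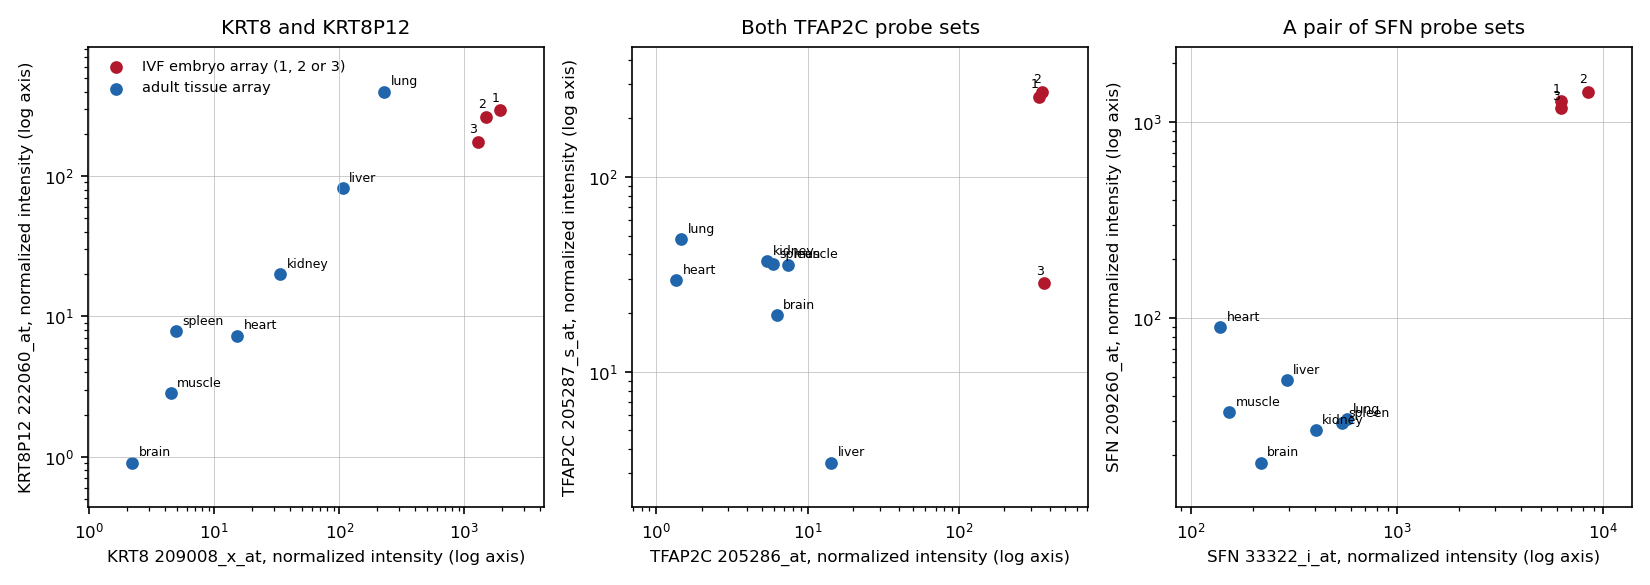
Normalized intensity (both axes logarithmic) of pairs of probe sets on each array, with the 3 IVF embryo arrays numbered in red and the 7 tissue arrays named in blue: KRT8 against KRT8P12 (left), both TFAP2C probe sets (middle) and the SFN probe sets 33322_i_at and 209260_at (right). KRT8 and KRT8P12 order the tissues nearly alike but lung is the top KRT8P12 array at 400.0, the third embryo array leaves the other two for TFAP2C 205287_s_at, and heart is the lowest tissue for SFN 33322_i_at and the highest for 209260_at.

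TFAP2C was read by 2 probe sets that disagreed on 1 embryo array. The first, 205286_at, read 338.7, 353.4 and 364.5 in embryos, against 1.36 in heart, a tissue median of 5.91 in spleen and 14.4 in liver. After normalization the embryo arrays differed little (coefficient of variation 3.67%, the lowest of the 7 member probe sets). As deposited they spread more widely, at 294.8, 385.4 and 503.8. The tissue values lie so low on their arrays that no fold is given. It averaged 352 ± 12.9 (SD, n = 3) on embryo arrays and 6.02 ± 4.37 (SD, n = 7) on tissue arrays, so that embryos minus tissues came to 2.44 ± 0.22 log2 (SE; limma adjusted p = 3.9e-05, and 0.00028 with averaged embryo arrays).

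The second TFAP2C probe set, 205287_s_at, read 259.2, 274.9 and 28.5 on the 3 embryo arrays, against 3.42 in liver, 35.5 in muscle as the tissue median and 48.1 in lung. The first and the second embryo array lay above every tissue, and the third lay below kidney, spleen, muscle, heart and lung. The deposited values, 221.2, 298.0 and 34.6 in embryos, also placed the third array among the tissues (3.1 in liver to 45.3 in lung). Above the median on 2 arrays, it was not tested in the filtered fit. With no filter, embryos exceeded tissues by 1.16 ± 0.38 log2 (SE; limma adjusted p = 0.0967), and an exact two-sided permutation over the 120 splits of the arrays gave p = 0.05. Without the third embryo array the difference was 1.74 (limma adjusted p = 0.00955). Over the 7 tissues the 2 probe sets correlated at -0.80 (Pearson) and -0.57 (Spearman), but no step between tissues exceeded the embryo SD of 1.01 for 205287_s_at and the tissue values of 205286_at lay at percentiles 1.83 to 7.09 of their arrays, so no order of the tissues can be read for TFAP2C.

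SFN had 3 probe sets, and all placed every embryo array above every tissue. On the probe set 209260_at the embryos read 1278, 1435 and 1177, against 18.4 in brain, a tissue median of 30.6 in lung and 89.9 in heart. The dimmest embryo array exceeded heart 13.1-fold. Heart lay at percentile 30.9 of its array and the other tissues lower, so this fold rests on dim readings. This probe set averaged 1297 ± 130 (SD, n = 3) on embryo arrays and 39.5 ± 24.0 (SD, n = 7) on tissue arrays, so that embryos minus tissues came to 3.64 ± 0.19 log2 (SE; limma adjusted p = 8.8e-07, and 0.00102 with averaged embryo arrays).

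The SFN probe set 33322_i_at was at the very top of the embryo arrays, ranking 2, 1 and 2 from the brightest of the 10186 probe sets. At that end quantile normalization sets the value by rank. The deposited values are therefore given first, at 3410.3, 3897.7 and 3664.6 in embryos, against 104.5 in heart, 266.8 in brain as the tissue median and 563.6 in lung. Deposited values averaged 3658 ± 244 (SD, n = 3) on embryo arrays and 313 ± 178 (SD, n = 7) on tissue arrays, and the dimmest embryo array exceeded lung 6.05-fold. Normalized values averaged 6959 ± 1273 in embryos and 331 ± 177 in tissues, and the difference of 4.23 ± 0.37 log2 (SE; limma adjusted p = 3.7e-05, and 0.0118 with averaged embryo arrays) was the largest of all tested probe sets. Its rank depended on the scale: with values as deposited the difference was 3.42 and ranked 10, with a common median 3.15 and 10, and with no offset 4.57 and 46.

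The SFN probe set 33323_r_at read 1891, 1843 and 3608 in embryos, against 55.8 in heart, a tissue median of 113.6 in liver and 202.6 in lung. Here the third embryo array was the bright one, at 2909.5 as deposited against 1624.1 and 1912.7. Embryos exceeded tissues by 3.75 ± 0.28 log2 (SE; limma adjusted p = 1.1e-05, and 0.00088 with averaged embryo arrays). The means were 2447 ± 1006 (SD, n = 3) on embryo arrays and 112 ± 46.8 (SD, n = 7) on tissue arrays.

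The SFN probe sets thus gave like differences between embryos and tissues, and differed over the tissues. The pair 33322_i_at and 33323_r_at ordered the tissues alike, with lung brightest and heart dimmest (Pearson 0.82 and Spearman 0.96 over 7 tissues), although no step between neighbouring tissues exceeded the embryo SD of 0.53 for 33323_r_at. The probe set 209260_at placed heart first, and correlated at -0.49 and -0.44 (Pearson) with the other two. The order of the tissues for SFN thus depended on the probe set read. All correlations here are over the same arrays and carry no test.

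Each of the 6 tested member probe sets was also set against each tissue in turn, in a limma fit with 8 groups whose spread comes from the 3 embryo arrays alone and assumes that a tissue array varies like an embryo array. All 6 were called higher against each of the 7 tissues. The shares of all tested probe sets called higher were 17.5% against brain, 18.3% against heart, 12.9% against kidney, 19.9% against liver, 11.9% against lung, 21.6% against muscle and 8.55% against spleen. All of the 6 but SFN 33322_i_at needed the embryo arrays to be tested. The fit was therefore also run with no filter, a setting chosen after seeing the data. It called the same 6 of all 7 against each tissue and did not call TFAP2C 205287_s_at against any. Of all 10186 probe sets that fit called 10.9% higher against brain, 11.5% against heart, 7.12% against kidney, 12.7% against liver, 6.53% against lung, 13.6% against muscle and 4.58% against spleen. Without the second embryo array, and with the filter on at least 2 arrays, limma called 0 of the 6 against kidney and liver (6 at an unadjusted p under 0.05; adjusted p 0.0519 to 0.0712), 4 against lung and 5 against spleen. KRT8 and SFN 33323_r_at were the losses against lung, and SFN 33323_r_at against spleen. Without the first array SFN 33323_r_at was not called against lung and spleen. An embryo array left out leaves that fit 1 residual degree of freedom.

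The smallest of these differences was that of KRT18 against liver, at 1.87 ± 0.19 on the log2 scale (SE, limma adjusted p = 0.0031), and KRT18 lay at 2.69 to 2.71 against the other tissues. For KRT8 the smallest was against lung, at 2.43 ± 0.26 (SE, limma adjusted p = 0.0035), and the largest against brain, at 4.44. TFAP2C (205286_at) spanned 2.29 against liver to 2.53 against heart, a narrow span that the offset also shapes, since its tissue values ran from 1.36 to 14.4. The largest difference of a member was that of SFN (33322_i_at) against heart, at 5.04. In bulk RNA, fewer cells of a type and less RNA per cell cannot be told apart.

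**Figure D3:**
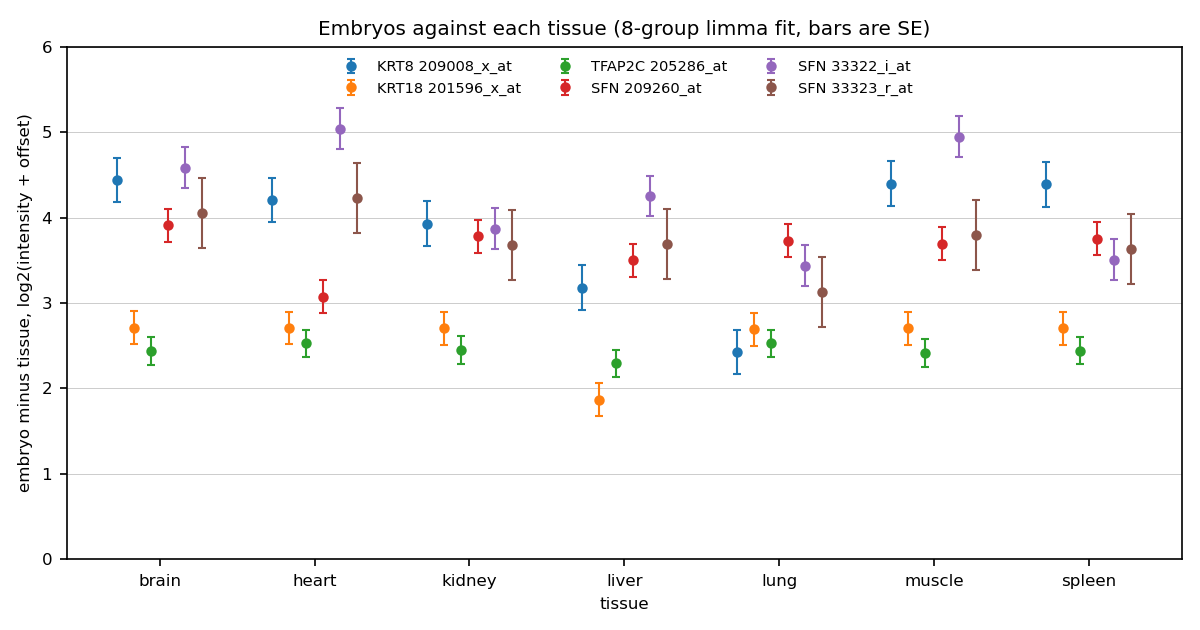
Embryo mean minus each tissue, in log2(normalized intensity + 72.2), for the 6 tested member probe sets; bars are the SE of the 8-group limma fit. All points lie above 1.8. KRT18 dips against liver (1.87) and KRT8 against lung (2.43), while TFAP2C stays between 2.29 and 2.53. The offset of 72.2 draws the dim tissue readings of KRT18 and TFAP2C together.

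Gene families and partners of the 4 genes were described by counts, beside those of all 4727 tested genes, of which 7.83% were higher and 3.11% lower (median difference 0.03). The brightest tested probe set stands for each gene. The lists were chosen with results of these data known, and members among them are no independent evidence.

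Among 22 tested genes of the trophectoderm, 7 rose, 1 fell and 14 did not pass, with a median log2 difference of 0.28. Of the 18 that are not members, 3 rose and 1 fell (median 0.24). ATP1B3, a beta subunit of the sodium pump that drives fluid into the blastocyst cavity, read 4047 ± 232 (SD, n = 3) on embryo arrays and 419 ± 216 (SD, n = 7) on tissue arrays, so that embryos minus tissues came to 3.21 log2 (limma adjusted p = 0.0003). LGALS3, a galactose-binding lectin, rose by 2.44 (adjusted p = 5.1e-05) and TFAP2A by 1.02. The gene that fell was ATP1B1, another subunit of the pump, at -1.94 (adjusted p = 0.0017). LGALS3 and ATP1B1 were picked after their values were seen. With averaged embryo arrays only LGALS3 of the non-members passed (limma adjusted p = 0.0123, against 0.0631 for ATP1B3). LGALS3 entered the test through the embryo arrays alone (tissue maximum 82.7 in lung) and could only be called higher; with no filter and 3 embryo arrays its adjusted p was 6.8e-05. Without any 1 of the embryo arrays TFAP2A was no longer called, and 2 non-members rose.

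KRT33B, a hair keratin, was the other keratin that rose. Of 32 keratin genes on the platform 12 had values and 8 were tested, and the other 5 tested did not pass. KRT33B (207787_at) read 591.3, 414.7 and 161.4 in embryos, against 1.60 to 5.25 in tissues, so that embryos minus tissues came to 2.49 ± 0.31 log2 (SE; limma adjusted p = 0.00037, and 0.00021 with averaged embryo arrays). No tissue read it above its array median, so it was tested only because it was bright in embryos; with no filter its adjusted p was 0.00065. Its 3 embryo values spread more widely than those of KRT8 and KRT18. The median difference of the 6 keratins other than KRT8 and KRT18 was -0.05. KRT10, a keratin of upper epidermis, read 146 ± 18.9 (SD, n = 3) on embryo arrays and 196 ± 59.7 (SD, n = 7) on tissue arrays, and its difference of -0.27 did not pass.

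Among the AP-2 factors TFAP2A and TFAP2C had values. TFAP2A (204653_at), which acts with TFAP2C in mouse trophectoderm, read 278.8, 352.4 and 288.4 in embryos and overlapped the tissues, where kidney read 345.8 and the median was 87.9. Its difference of 1.02 was just past the threshold (limma adjusted p = 0.0451, and 0.674 with averaged embryo arrays). Its second probe set did not pass (0.70, adjusted p = 0.168). TFAP2A also lost its call with arrays scaled to a common median and with no filter (adjusted p = 0.062).

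SFN was the 1 member of the 14-3-3 family that passed by its brightest probe set, of 5 genes tested. The other 4 (YWHAB, YWHAE, YWHAQ and YWHAZ, which most cells make) had a median difference of 0.46. YWHAQ came nearest, at 1.20 (limma adjusted p = 0.0703). Its other probe set rose by 1.75 (adjusted p = 0.0135), so the count depends on the probe set taken.

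SFN is known in human cells to hold the cyclin B kinase in the cytoplasm and to bind CDC25 phosphatases. Of 11 tested genes of that partner list 4 rose, none fell (0 at an unadjusted p under 0.05) and 7 did not pass, with a median difference of 0.29. CDC25A, the phosphatase that activates cyclin-dependent kinases, rose by 2.49 (limma adjusted p = 3.9e-05). The mitotic cyclins CCNB2 and CCNB1 rose by 2.14 and 2.13 and WEE1, a kinase that restrains mitotic entry, by 1.18 (limma adjusted p = 0.0127, 0.00041 and 0.0272). With averaged embryo arrays, and without any 1 embryo array, CDC25A and CCNB1 were called and CCNB2 and WEE1 were not. No tissue read CDC25A or CCNB1 above its array median, so both entered the test through the embryo arrays alone and could only be called higher; with no filter their adjusted p was 7.8e-05 and 0.00061.

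Genes around the keratins in the cytoskeleton and at cell junctions were mostly not called. Of 7 other intermediate filament genes tested none rose (1 at an unadjusted p under 0.05) and 1 fell, VIM, the vimentin of mesenchymal cells, at -1.32 (limma adjusted p = 0.0129). Of 6 desmosome and filament linker genes none rose (1 at an unadjusted p under 0.05) and 1 fell, DST, a linker of filaments to cell junctions, at -1.15 (adjusted p = 0.0205). With values as deposited, LMNB1, a nuclear lamin, and PERP, a desmosome protein, rose (picked after their values were seen) and DST was not called. Neither VIM nor DST was called with averaged embryo arrays or without any 1 embryo array. Limma called none of 10 polarity and junction genes (median 0.01; at an unadjusted p under 0.05, 0 were higher and 1 was lower), among them CDH1, E-cadherin of epithelia, at 265 ± 106 (SD, n = 3) on embryo arrays and 299 ± 65.4 (SD, n = 7) on tissue arrays. PRKCI, also on the polarity and junction list, failed the filter and was not among those tested. With no filter it was called higher (0.83, limma adjusted p = 0.0298). It read 137.5, 148.6 and 195.3 in embryos, against a tissue maximum of 71.0 in brain, and was picked after its values were seen. Of the 17 desmosome genes listed 7 had values, so most of that structure was not read.

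**Figure D4:**
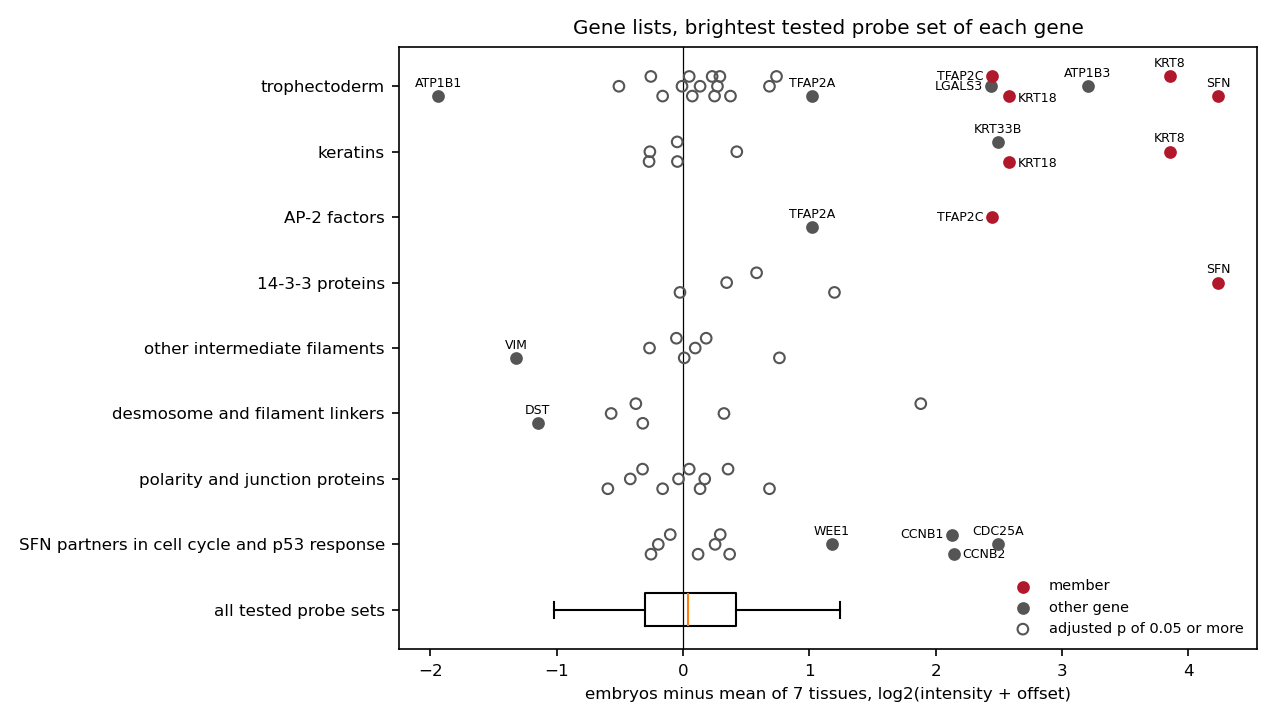
Embryo mean minus the mean of 7 tissues, in log2(normalized intensity + 72.2), for 1 probe set (the brightest tested) per gene in 8 lists; filled points passed an adjusted p of 0.05 and are named, open points did not, members are red, and the box at the bottom holds the middle of all 6775 tested probe sets with whiskers at the 5th and 95th percentile. KRT8 and SFN lie at 3.85 and 4.23 while the polarity and junction proteins have a median of 0.01.

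Markers of other cells that carry keratins or SFN were summed over their probe sets with values. Keratinocyte markers had 2 of 16 genes with values, KRT10 and PKP1, and their sum was 259 to 483 on the embryo arrays, highest on the third, and 256 to 476 in tissues. Cumulus and granulosa markers, of the cells that surround the oocyte, had 6 of 16 genes with values. Their sum was 688 to 979 in embryos and 665 to 1326 in tissues. Limma called none of the 3 tested, and 1 was higher at an unadjusted p under 0.05. The third embryo array was the high one for STAR (0.91, 0.18 and 139.7 in embryos, tissue maximum 14.3) and for CYP19A1 (79.9, 118.1 and 305.1 in embryos, tissue maximum 171.4), both of steroid synthesis; their part in the member values was not tested. Mesothelial markers had 2 of 6 genes with values, with sums of 181 to 230 in embryos and 115 to 722 in tissues, liver being highest. MSLN, which defines mesothelium, read 2.71, 14.8 and 4.17 in embryos. CALB2, the other, read 178.1, 207.4 and 226.3 in embryos, against a tissue mean of 171 ± 79.5 (SD, n = 7), and was not called (0.24, limma adjusted p = 0.567).

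Epithelial markers of the adult organs checked the tissue labels. Lung epithelial markers (7 of 10 genes with values) summed to 960 to 1256 in embryos and 1230 to 17160 in tissues, highest in lung. The 5 probe sets of SFTPC, a surfactant protein, carried most of the lung sum, and 4 of them averaged under 10 in embryos. SFTPD (458.2) and a probe set each of NKX2-1 (873.4) and MUC1 (271.3) also peaked in lung. Others on that list did not. AGER peaked in muscle (602.0), SFTPB in spleen (289.4) and NKX2-1 by its tested probe set in liver (590.2). Their embryo means were 86.8, 174 and 297. The other MUC1 probe set peaked in kidney (601.5) and CDH1 in brain (401.1). Hepatocyte and bile duct markers (6 of 10) summed to 572 to 656 in embryos and 429 to 5517 in tissues, highest in liver. Kidney tubule markers (7 of 11) summed to 1923 to 2407 in embryos and 1618 to 2681 in tissues, highest in kidney. APOA1, APOB and TTR peaked in liver, but SOX9 in brain (798.5). A probe set of ALB read higher in embryos (129.4 to 212.0) than in every tissue, while another peaked in liver. CDH16 peaked in kidney (294.6), but LRP2 in brain (287.1) and AQP3 by its tested probe set in spleen (287.9). A probe set of SLC12A3 rose in embryos (1.28, limma adjusted p = 0.0033), while the gene's brightest did not pass (0.59, adjusted p = 0.41). The part of the epithelial cells of these organs in the KRT8 and KRT18 readings of lung and liver was not tested. The 5′ to 3′ ratio of the GAPDH control probe sets, a measure of RNA quality, was 0.461, 0.488 and 0.463 in embryos and 0.287 to 0.471 in tissues. That of the ACTB control probe sets was 0.566, 0.728 and 0.604 in embryos, and from 0.311 in lung to 2.65 in heart among tissues. The GAPDH and ACTB ratios ordered the tissues differently, and their part in the member values was not tested.

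The probe sets most like each member were those with the highest Pearson correlation of log2 values over the 10 arrays, among tested probe sets of other genes. For KRT8 they were SLC22A8 (0.985), an organic anion transporter, ERMAP (0.978), EIF4E2 (0.978), a cap-binding protein, KLF5 (0.975), a transcription factor of early embryo and epithelial cells, and ATG10 (0.974), an autophagy enzyme. For KRT18 they were UBE2G2 (0.997), a ubiquitin-conjugating enzyme, NUDT13 (0.992), the TFAP2C probe set 205286_at (0.984), FCF1 (0.984) and ELOVL6 (0.982), a fatty acid elongase. Like KRT8, SLC22A8 read higher in embryos (639) than in tissues (15.7), with a tissue maximum of 68.8.

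For TFAP2C (205286_at) the most like were a pair of DLEC1 probe sets (0.998 and 0.997), ZNF552 (0.997), S100A5 (0.997), a calcium-binding protein, and POU5F1P3 (0.995), annotated as a human pseudogene copy of the pluripotency factor POU5F1. For SFN (33322_i_at) they were SIRT1 (0.987), a deacetylase, FBL (0.982), a nucleolar methyltransferase, SINHCAF (0.982), a corepressor subunit, MELK (0.979), a kinase of dividing cells, and PHF1 (0.979), a Polycomb partner. Over the 7 tissues alone, the Pearson correlations of the named probe sets were 0.77 to 0.92 with KRT8, 0.53 to 0.95 with KRT18, -0.31 to 0.35 with TFAP2C and 0.63 to 0.90 with SFN. Over all 10 arrays, 34, 56, 75 and 87 of 5856 to 5858 candidate probe sets exceeded 0.95 with KRT8, KRT18, TFAP2C and SFN. Probe sets called higher in embryos had median correlations of 0.85, 0.85, 0.87 and 0.89 with them, so the embryo arrays carry much of these values. With Spearman in place of Pearson, 2, 1, 0 and 0 of each 5 were kept. Among the members themselves, TFAP2C (205286_at) and the SFN probe set 209260_at were most alike over the 10 arrays (0.988). Over the 7 tissues alone that pair correlated at -0.17 (Pearson) and -0.07 (Spearman), so the shared embryo arrays carry the high value.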

How the data were processed

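Bovine RNA from 3 IVF embryo arrays and 7 tissue arrays was measured on a human expression array. The authors deposited linear intensities, 1 value for each probe set of an array. How they were computed and scaled is not given in the sources. The file lists 22283 probe sets, of which 12064 were blank throughout and 33 were controls, left out here. Probe sets were named by the platform annotation (8847 with 1 symbol, 479 with several, 860 with none), and 4465 of the 4727 symbols tested are in bovine RefSeq.

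The deposited intensities were quantile normalized and transformed to log2(intensity + 72.2); this offset is the median of the 10 arrays' lower quartiles (25th percentile). Differences were tested two-sided with limma 3.58.1 in R 4.3.3 (lmFit, eBayes with trend and robust), adjusted by Benjamini-Hochberg over all tested probe sets, threshold 0.05. Further fits averaged the embryo arrays or used 8 groups, which leaves 2 residual degrees of freedom. For each of the 6 tested member probe sets an exact two-sided permutation over 120 splits gave 0.00833, the smallest p it allows. The scripts were tested on simulated data. Figures used matplotlib 3.10.9. The number of arrays limits the precision.

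The members and gene lists were chosen with earlier results of these data known. Named genes were all member probe sets, up to 4 called genes per list with the largest differences, and the 5 most similar probe sets per member; genes named outside this rule were chosen after their values were seen. Alternatives changed the scaling (as deposited, or a common median), the offset (none, or 4 times larger), the filter (none, or the 75th percentile) and the variance model (plain eBayes), or left arrays out. The files name no genome build, and coordinates are left out.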

Additional observations from a re-analysis of the deposited data

Results flagged for a closer look

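Among the 7 tissues, the liver value of KRT18 (201596_x_at) stood far from the others, at 58.1 against 1.30 in lung, the next tissue. On the log2 scale its gap took 0.98 of the whole range of the tissues, above the critical value of 0.568 for 7 values. The offset of that scale draws the low values of the other tissues together. That critical value picks out about 1 in 20 single groups of replicates by chance. Here 7 probe sets were scanned and the 7 values are different tissues, not replicates of 1 group, so this rate does not hold. The deposited values were 41.8 in liver and 1.3 in lung. The 3 embryo arrays, at 365.0 to 462.8, lay above liver.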

How the results depend on the processing

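The 6 tested member probe sets kept their direction and their call in every alternative that gave them a value. Over these their log2 differences ran from 2.44 to 6.42 for KRT8, 1.22 to 7.76 for KRT18, 1.12 to 6.27 for TFAP2C 205286_at, 2.27 to 5.21 for SFN 209260_at, 3.15 to 4.57 for 33322_i_at and 2.72 to 4.49 for 33323_r_at. With 2 embryo arrays and the filter on 3 arrays, KRT18, TFAP2C 205286_at and SFN 209260_at were not tested. These passed the filter through the embryo arrays alone, so in filtered fits they could not be called lower, and their direction there is no support. With no filter limma also called them higher (adjusted p = 0.000136, 7.8e-05 and 8.2e-07). KRT8 and SFN 33323_r_at were above the median in lung as the only tissue, so the filter favoured a higher call for them too. With no filter limma called both higher (adjusted p = 0.000136 and 1.4e-05). TFAP2C 205287_s_at gave 0.85 to 1.74 with 1 array left out, and passed at 1.74 without the third embryo array and at 1.76 without that array and muscle (chosen after seeing the data).

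Over all probe sets, averaged embryo arrays gave 73 higher and 5 lower, the spread of the embryo arrays alone gave 1651 and 1284, and leaving out 1 array gave 63 to 636 higher and 27 to 295 lower. Without the third embryo array and muscle, 262 were higher and 49 lower. In the fits against each tissue without an embryo array, 3 to 6 member probe sets were called against brain, heart, lung, muscle and spleen, and 0 to 6 against kidney and liver. With the filter on 3 arrays only 3 were tested there; with the filter on 2 arrays all 6 were, and 4 to 6 were called against lung and 5 to 6 against spleen. The median difference of all tested probe sets was 0.04, and 0.22 with values as deposited. No paired analysis was possible because each tissue has 1 array and only the embryo arrays carry replicate numbers.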
